A study of Mus musculus with 4 samples.

Results

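Lasting H3K9me3 peaks without H3K4me3 are the stretches of chromatin that carried trimethylation of lysine 9 of histone H3 in macrophages of both genotypes of the study and carried no called trimethylation of lysine 4. They were chosen from the peak calls themselves. A wild-type H3K9me3 peak was taken if it overlapped an H3K9me3 peak of the knockout library by at least 1 bp and overlapped no H3K4me3 peak of either genotype. In all, 2891 of the 19279 wild-type H3K9me3 peaks met this rule, and they covered 941 kb. Both H3K9me3 libraries and both H3K4me3 libraries were used to choose them, so their presence in both genotypes and their lack of H3K4me3 overlap are no findings, and their tags are given as a description.

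Chromatin immunoprecipitation with sequencing (ChIP-seq) was carried out on peritoneal macrophages elicited with thioglycollate broth, from C57BL/6 mice aged 8 weeks, and kept in culture dishes in medium with serum. The cells were wild type or Sun-/-, giving 4 libraries, 1 for each mark in each genotype. All groups share the strain, age, elicitation and culture, and the labels name abcam ab8580 as the H3K4me3 antibody and ab8898 as the H3K9me3 antibody. The name Sun stands in the labels with no member number, so the gene removed was not checked here. How many animals gave cells to a library is not given in the sources used here. With 1 library per group no difference between the genotypes has a replicate check and no test was made. Intervals below are exact Clopper-Pearson intervals for shares and exact binomial intervals for tag ratios, at the 95% level, and cover counting error only.

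H3K9me3 is the mark of silenced chromatin. SETDB1 writes it at sites where KRAB zinc finger proteins, through KAP1, bind retroviral sequences, imprinted loci and the 3' exons of zinc finger genes, and SUV39 enzymes write it over satellite repeats. Germline genes are held silent in somatic cells by a complex of MGA, MAX and E2F6, whose MGA and MAX subunits bind the E-box CACGTG, together with H3K9 methylation and DNA methylation of their CpG-rich promoters. H3K4me3 marks promoters in use or poised for use. In these libraries 5239 of the 19279 wild-type H3K9me3 peaks overlapped an H3K4me3 peak. Of these, 3367 also overlapped a knockout H3K9me3 peak, more than the 2891 lasting peaks without H3K4me3.

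The promoters whose window overlapped such a wild-type peak are shown first, because there the peak lay at or near the start of a gene. A promoter window of the RefSeq table of GRCm38.p6, the assembly also called mm10, runs from 250 bases before an annotated start to 50 bases after it. Of 32851 windows, 29 windows of 27 genes overlapped a lasting peak. The 250 bases before the start of 4 germline genes follow, 5' to 3' in the direction of the gene, with CpG dinucleotides and the E-box CACGTG in capitals. These 4 genes were chosen after their values were seen.
Mael (chr1:166238745-166238994, minus strand): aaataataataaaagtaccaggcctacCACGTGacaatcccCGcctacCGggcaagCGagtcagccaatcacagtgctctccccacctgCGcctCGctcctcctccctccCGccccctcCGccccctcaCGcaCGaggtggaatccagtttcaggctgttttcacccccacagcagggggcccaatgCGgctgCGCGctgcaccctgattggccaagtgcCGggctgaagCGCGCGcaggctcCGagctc
Sycp1 (chr3:102936101-102936350, minus strand): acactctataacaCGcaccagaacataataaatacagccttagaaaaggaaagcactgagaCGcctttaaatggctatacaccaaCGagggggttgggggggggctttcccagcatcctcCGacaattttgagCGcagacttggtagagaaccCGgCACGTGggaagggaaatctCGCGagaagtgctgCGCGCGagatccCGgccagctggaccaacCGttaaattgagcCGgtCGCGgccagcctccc
Sycp2 (chr2:178407659-178407908, minus strand): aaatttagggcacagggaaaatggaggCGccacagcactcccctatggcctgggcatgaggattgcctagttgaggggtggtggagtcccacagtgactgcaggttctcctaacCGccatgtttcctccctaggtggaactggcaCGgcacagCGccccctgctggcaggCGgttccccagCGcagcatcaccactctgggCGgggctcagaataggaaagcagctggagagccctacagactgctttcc
Tdrd1 (chr19:56825959-56826208, plus strand): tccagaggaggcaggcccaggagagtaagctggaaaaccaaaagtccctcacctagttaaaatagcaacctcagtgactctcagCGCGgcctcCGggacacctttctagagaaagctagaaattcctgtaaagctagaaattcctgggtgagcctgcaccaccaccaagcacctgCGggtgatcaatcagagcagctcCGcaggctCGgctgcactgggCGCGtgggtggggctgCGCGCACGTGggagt

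Mael encodes a protein of the piRNA pathway that silences transposons in germ cells, and Tdrd1 a Tudor domain protein of the same pathway. Sycp1 and Sycp2 encode parts of the synaptonemal complex, which holds homologous chromosomes together in meiosis. The Mael peak (chr1:166238415-166238822) held 30 H3K9me3 tags in wild-type cells and 17 in the knockout, where a tag is 1 sequenced read counted at its position. The Sycp1 peak (chr3:102935948-102936317) held 27 and 19 tags, and the larger Sycp2 peak (chr2:178407575-178407949) held 26 and 38. The Tdrd1 promoter peak (chr19:56826129-56826409) was near the lowest tag counts of the list, with 15 and 14 tags. Each of the 4 starts was thus inside a peak of few tags in both genotypes, higher in the wild type at Mael and Sycp1, higher in the knockout at Sycp2 and about level at Tdrd1. The windows of Mael, Sycp1, Sycp2 and Tdrd1 held 24, 21, 10 and 20 CpG dinucleotides, against a median of 7 over all windows and of 17 over the 76 windows of the germline list.

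The E-box was counted by its letters, CACGTG, which read the same on both strands. It stood in the windows of Mael, Sycp1 and Tdrd1 and not in that of Sycp2. At Mael it lay at -223 to -218 from the start, inside the knockout peak and outside the wild-type peak. At Sycp1 it lay at -94 to -89, inside the wild-type peak and outside the knockout peak, and at Tdrd1 at -11 to -6, inside both. It was present in 4 of the 5 windows of the germline list that overlapped a lasting peak (80%, 4 genes, with 2 overlapping windows of Tdrd1), in 25 of the 76 windows of that list (32.9%) and in 7.15% of all windows. Over all 29 windows with a lasting peak the share was 13.8%. The E2F6 motif GCGGGAA, searched on both strands, stood in 0 of the 29 windows, in 4.60% of all windows and in 23.7% of the germline windows. TATAAA stood in 3.45% of the windows with a lasting peak and 13.6% of all, TGCCGC, read by the imprinting factor ZFP57 when methylated, in 6.90% and 11.6%, and CCCTC, a core of the CTCF motif, in 65.5% and 66.0%. A match of letters is a description and not a bound site.

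**Figure D1:**
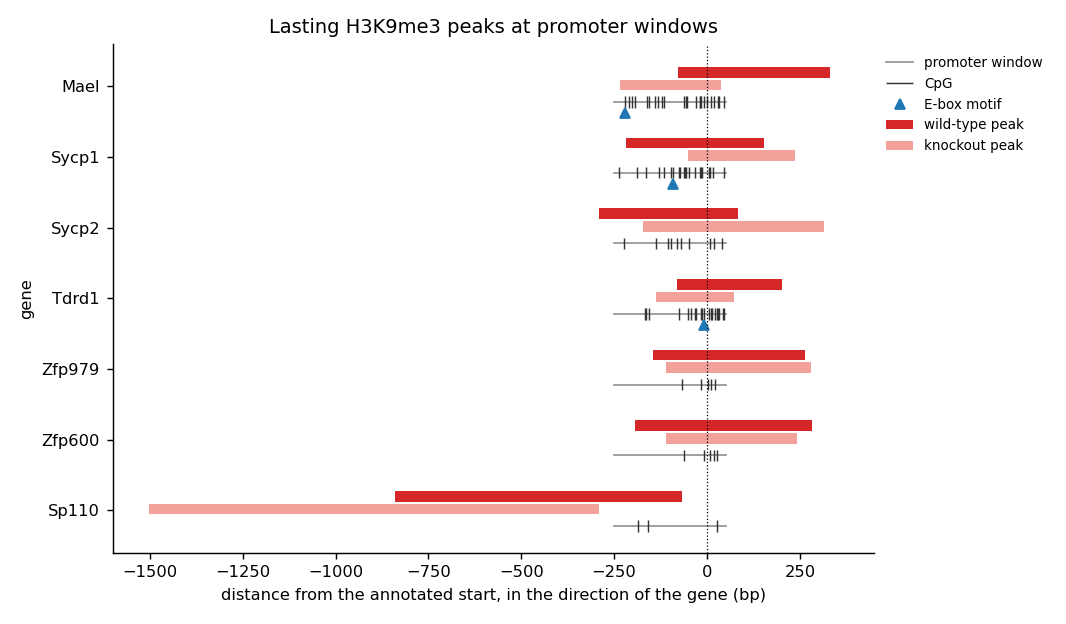
Position of the H3K9me3 peaks at the printed promoters, in bp from the annotated start in the direction of the gene, with CpG dinucleotides (ticks) and the E-box motif (triangles) in each promoter window. The wild-type and knockout peaks cover the starts of the 4 germline genes and of Zfp979 and Zfp600, while the Sp110 peaks lie upstream, at -841 to -67 and -1502 to -291.

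Promoters of 3 further genes, among those with the most tags, are shown in the same way because they come from tandem gene clusters of chromosomes 4 and 1 that held many lasting peaks. The choice does not follow the order of tags. The promoter peak with the most tags, over the window of C130026I21Rik on chromosome 1, is not printed. It held 528 tags in 3167 bp in the wild type and 256 tags in 1563 bp in the knockout. Zfp979 and Zfp600 are zinc finger genes, and Sp110 is a gene of the Sp100 family of nuclear body proteins.
Zfp979 (chr4:147642509-147642758, minus strand): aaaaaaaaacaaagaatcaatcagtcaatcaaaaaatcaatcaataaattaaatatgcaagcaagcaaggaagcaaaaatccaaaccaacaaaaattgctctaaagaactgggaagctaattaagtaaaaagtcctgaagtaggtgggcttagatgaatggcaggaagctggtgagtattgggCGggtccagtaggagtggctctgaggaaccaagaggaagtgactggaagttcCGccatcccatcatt
Zfp600 (chr4:146156577-146156826, plus strand): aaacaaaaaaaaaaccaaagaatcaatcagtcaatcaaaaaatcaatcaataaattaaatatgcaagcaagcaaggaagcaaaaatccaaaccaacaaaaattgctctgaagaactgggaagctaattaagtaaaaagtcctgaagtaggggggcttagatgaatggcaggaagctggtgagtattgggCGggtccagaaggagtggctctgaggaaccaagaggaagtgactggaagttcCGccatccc
Sp110 (chr1:85603892-85604141, minus strand): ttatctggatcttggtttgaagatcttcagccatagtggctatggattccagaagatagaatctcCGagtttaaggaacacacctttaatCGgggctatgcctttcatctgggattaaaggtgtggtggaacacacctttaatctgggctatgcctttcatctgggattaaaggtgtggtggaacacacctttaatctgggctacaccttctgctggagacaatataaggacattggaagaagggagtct

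The windows of Zfp979 and Zfp600 were 94.8% identical, with 290 identical bases in 306 aligned columns, so the counts of these near-identical copies are uncertain. Their peaks held 50 and 36 tags (Zfp979, wild type and knockout) and 41 and 29 tags (Zfp600), lower in the knockout at both. The Sp110 peak upstream of the start held 139 tags in 775 bp in the wild type and 186 tags in 1212 bp in the knockout. The knockout peak thus held more tags but was wider, and its fold enrichment was 4.74 against 5.22. It lay wholly outside the promoter window, which only the wild-type peak overlapped. The windows of Zfp979, Zfp600 and Sp110 held few CpG dinucleotides, 5, 5 and 3. The H3f4 promoter, of a histone H3 gene, also overlapped a lasting peak, with 44 and 47 tags, and so did that of Stpg4, with 36 and 33 tags and 17 CpG dinucleotides.

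The lasting peaks were short and held few tags in both libraries. Their width ran from 82 to 5392 bp in the wild type with a median of 271 bp, and from 97 to 6426 bp in the knockout with a median of 270 bp. The wild-type peaks held 11 to 1260 tags with a median of 19, the knockout peaks 12 to 1772 with a median of 19, and the middle 50% of peaks held 15 to 27 and 15 to 26 tags. The authors' score, -10 times log10 of the caller's p-value, had a median of 71.1 in wild-type cells and 69.4 in the knockout, against a lowest value of 50.01 in both. The authors' fold enrichment over the local background had a median of 8.17 and 8.29. The quartiles of the 2 genotypes thus lay close together in width and tags. Together the peaks held 78280 tags in the wild type, 0.282% of that library's filtered tags.

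The knockout counterpart lay close to the wild-type peak. Of the 2891 peaks 2841 overlapped 1 knockout peak and 50 overlapped 2, of which the one with the larger overlap is given unless stated otherwise. In 126 lasting peaks a knockout peak was shared with another lasting peak, and sums over several lasting peaks count each knockout peak once. The median peak was covered to 84.9% by the knockout peaks, 634 were covered fully, and 2534 to at least 50%. The summits, the positions of the highest pileup, were a median of 46 bp apart, and 1538 (53.2%) lay within 50 bp of each other. The 2878 knockout counterparts were not themselves chosen for lack of H3K4me3, and 14 of them overlapped an H3K4me3 peak. At the edge of the rule, a peak nearest to Qpct with 13 and 12 tags met its counterpart in 0.488% of its length, and a wild-type peak of 13 tags in Ggcx that began right after a knockout peak ended was left out. A peak in Gria3 stood 8 bp from an H3K4me3 peak and was kept, while a lasting peak of 13 tags in Tenm1 overlapped one by 1 bp and was left out. Of the 11149 wild-type peaks free of H3K4me3 that had no counterpart, 144 had a knockout peak within 100 bp.

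**Figure D2:**
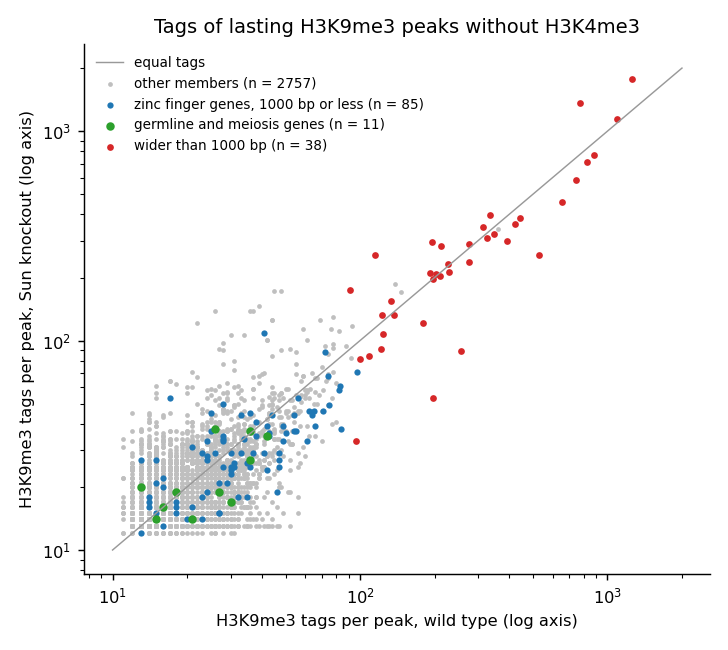
H3K9me3 tags per lasting peak in the wild type (horizontal) and in the Sun knockout (vertical), both on log axes, 1 point per peak, with the 38 peaks wider than 1000 bp, the 11 germline and the 85 narrower zinc finger peaks in colour. Most points lie between 11 and 100 tags on both axes, and the wide peaks reach 1260 and 1772 tags. Some wide peaks lie off the line of equal tags on either side. Examples are 528 and 256 tags at C130026I21Rik, 198 and 53 near Vmn1r238, and 115 and 256 in Gm8493.

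Tag density was compared in pairs, made of peaks whose overlap took up at least 50% of each and which touched no further peak. Of the lasting peaks 2297 had such a pair, among 4718 H3K9me3 pairs in all. The median log2 ratio, knockout over wild type, of tag density (tags per kb, scaled to filtered tags) was -0.05 for the lasting peaks and -0.03 for all pairs, and 1387 lasting peaks (60.4%) lay below 0. The ratios had an SD of 0.21, under the 0.46 that counting of so few tags would give, and the SD was 0.44 when tags were not divided by width. Width was called in each library together with the tags, so the narrow spread in density does not show that the marks were equal. The intervals of density ratios given below count tags alone and take the called width as exact. At few tags they are wider than this spread, so an interval that includes 0 tells little. Centred on the median of all pairs, 0 lasting peaks had a knockout density 2-fold or more above the wild type and 0 had one 2-fold or more below it. Among all 4718 pairs 1 lay past each limit (0.0212% and 0.0212%). The contrast is the one that chose the peaks, so nothing is read from these counts. Spearman's rho of the tags of both libraries was 0.593 over the 2297 pairs, which share the caller, the reference and a lower limit on tags.

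Among pairs with at least 50 tags in 1 library, the ratio was highest at Irx5 and lowest at Gm15564. The Irx5 peak (chr8:92359914-92360385), in a homeobox gene, held 31 wild-type tags and 72 knockout tags, at a log2 ratio of 0.51 relative to the median pair (interval -0.12 to 1.16). A 5S ribosomal RNA gene, n-R5s100, carried 91 and 175 tags (chr8:123538547-123539564), with a ratio of 0.42 (0.05 to 0.81). Elavl3, which encodes a neuronal RNA-binding protein, had 32 and 61 tags and a ratio of 0.42 (-0.22 to 1.08). These 3 peaks held more tags in the knockout library, but for Irx5 and Elavl3 the interval of the density ratio includes 0. The highest and lowest ratios were picked from 141 such pairs, and no interval, that of n-R5s100 included, allows for this choice.

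Gm15564 had the highest fold enrichment of the lasting peaks, 42.92 in wild-type cells and 26.36 in the knockout, and 55 tags in each. Its knockout peak was wider, 436 bp against 285 bp, which gave the ratio of -0.62 (-1.19 to -0.06). A tag-rich peak of chromosome 2 (chr2:98664780-98665240), 37359 bp from the nearest gene, held 360 and 340 tags in 461 and 642 bp, with a ratio of -0.57 (-0.79 to -0.35). In or within 1000 bp of zinc finger genes of chromosome 4 lay 3 of the 10 lowest ratios and 12 of all 141 such pairs. Of these 3, a peak in Zfp978 held 82 and 58 tags and was at -0.42 (-0.93 to 0.08). A peak in Zfp993 held 66 and 39 tags and was at -0.41 (-1.02 to 0.18), and the Zfp979 promoter peak described above was at -0.40 (-1.06 to 0.24). The intervals of all 3 include 0. Outside that distance, a peak 2225 bp from Zfp978 held 71 and 58 tags and was at -0.54 (-1.07 to -0.02).

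The share of wild-type peaks with a knockout counterpart differed with their number of tags. Of the 14040 wild-type H3K9me3 peaks that overlapped no H3K4me3 peak, the lasting peaks were 20.6% (19.9 to 21.3%). The share was 11.8% of the 7227 peaks with 11 to 15 tags, 21.3% of the 3664 with 16 to 20, 32.9% of the 2228 with 21 to 30 and 52.9% of the 716 with 31 to 50. It was 70.0% (62.0 to 77.2%) of the 150 peaks with 51 to 100 tags and 69.1% (55.2 to 80.9%) of the 55 with more. The lasting peaks were richer in tags than the wild-type peaks left out, with a median of 19 against 15, and the comparisons of position below are not matched for tags. Among the 5239 wild-type H3K9me3 peaks that did overlap H3K4me3, 64.3% had a counterpart.

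**Figure D3:**
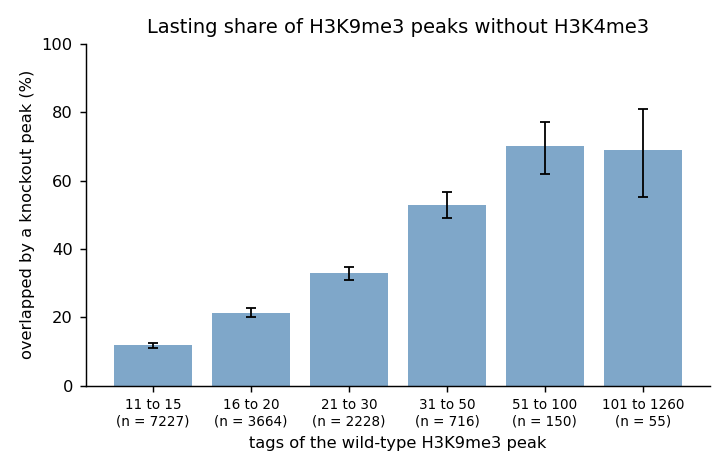
Share of H3K4me3-free wild-type H3K9me3 peaks that overlapped a knockout peak (percent, vertical) by the tags of the wild-type peak (horizontal), with exact 95% intervals. The share goes from 11.8% at 11 to 15 tags to 70.0% at 51 to 100 tags.

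The lasting peaks lay in genes about as often as genes cover the genome. Of them 1301 (45.0%, 43.2 to 46.8%) overlapped a gene of any type, where genes cover 46.1% of the span between the first and last gene of each chromosome. Protein-coding genes held 1051 of them (36.4%), other genes alone 250, and 1590 lay outside genes. The protein-coding share was 31.6% (30.8 to 32.5%) for the 11149 wild-type peaks without a counterpart and 36.1% for the 8102 knockout peaks without one, all free of H3K4me3. It was 64.7% for the 3367 lasting peaks with H3K4me3. The RefSeq table used here gives no exons, so peaks were not assigned to exons, introns or UTRs. Long noncoding RNA genes held 216 of the lasting peaks and pseudogenes 90, while 0 overlapped a miRNA gene, the nearest hairpin being that of Mir6349 at 461 bp.

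Ends of protein-coding genes were seldom touched. Of the lasting peaks 89 (3.08%, 2.48 to 3.77%) lay within 1000 bp of one, against 2.10% (1.84 to 2.38%) of the wild-type peaks without a counterpart and 2.99% of the knockout ones. The share was 37.5% among lasting peaks with H3K4me3, which the rule keeps out, so the low value is in part made by the rule. The 5 gene-end peaks with the most tags in the libraries together went both ways in tags between the genotypes. Mid1 held 424 and 359 tags, Gm40364 held 313 and 348, Gm40367 held 325 and 310, a peak at Sp110 and Sp140 held 198 and 197, and LOC108167320 held 39 and 147. Next in order was one at Grin3b and Tmem259 with 61 tags, beside another of 42, and both met a single knockout peak of 101 tags. Zfp978 held 82 and 58 tags. Gstp3, a glutathione transferase gene, held 44 and 84 tags, and Card10, a signalling scaffold gene, 28 and 97. The counterparts at LOC108167320, Grin3b, Gstp3 and Card10 held more tags than each wild-type peak and were also wider.

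H3K4me3 lay nearer to the lasting peaks than to the wild-type peaks without a counterpart. H3K4me3 of either genotype stood within 10000 bp of 906 lasting peaks (31.3%, 29.7 to 33.1%), against 23.4% (22.6 to 24.2%) of wild-type peaks and 30.6% (29.6 to 31.7%) of knockout peaks without a counterpart. The median distance was 25 kb, 39.4 kb and 24.4 kb in the same order. The values of the lasting peaks were thus close to those of the knockout peaks.

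**Figure D4:**
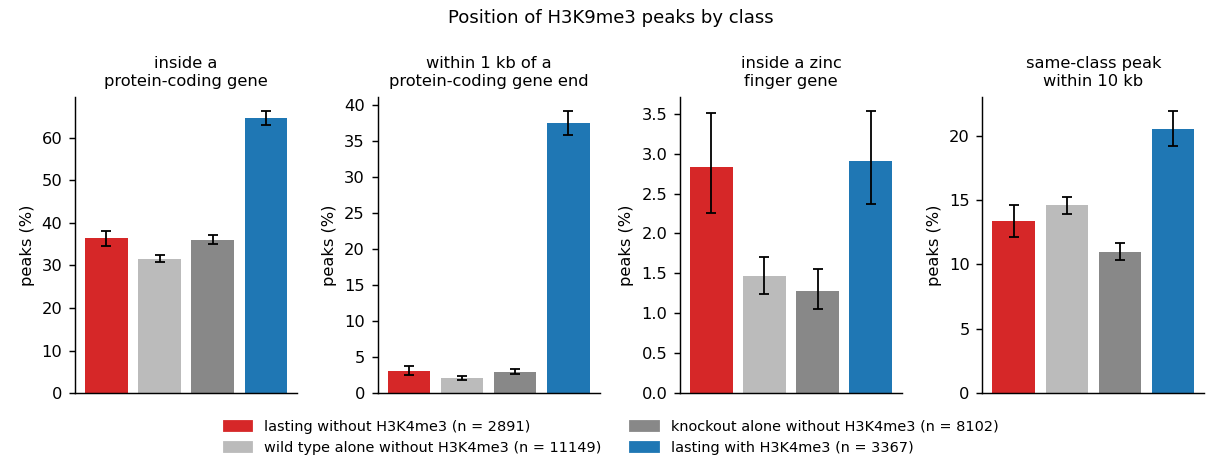
Share of H3K9me3 peaks (percent) of 4 classes that lay inside a protein-coding gene, within 1 kb of a protein-coding gene end, inside a zinc finger gene, or within 10 kb of a peak of the same class, with exact 95% intervals. Lasting peaks without H3K4me3 are at 36.4%, 3.08%, 2.84% and 13.4%, and lasting peaks with H3K4me3 at 64.7%, 37.5%, 2.91% and 20.5%.

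Of 21887 protein-coding genes, 919 (4.20%) held a lasting peak in the body or within 1000 bp, with 1.01 peaks per Mb of gene length. Gene lists are set beside these 2 values. The germline and meiosis list had 9 of 81 genes with a lasting peak (11.1%, 5.21 to 20.05%) and 3.02 peaks per Mb, in 11 peaks. Beside the promoter peaks of Mael, Sycp1, Sycp2 and Tdrd1, a further peak in Tdrd1 (chr19:56847965-56848372) held 36 and 37 tags, and a further peak next to the Sycp2 start 13 and 20. Cox7b2, a cytochrome c oxidase subunit gene, held 42 tags in wild-type cells and 35 in the knockout, and Tdrd9, a helicase gene of the piRNA pathway, 36 and 27. Tex11 and Mei4, which act in meiotic recombination, held 21 and 14 and 16 and 16, and Tex14, needed for the bridges between germ cells, 18 and 19. The intervals of the 10 paired ratios all include 0, but at so few tags they are wide and do not show that the genotypes were level. Both genotypes had an H3K4me3 peak within 1000 bp of an end of 2 of the 9 genes, Tex14 and Mei4, and of 30 of the 81 genes of the list.

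Imprinted genes, of which the parental copies differ in expression, had a lasting peak in 9 of 51 genes (17.6%, 8.40 to 30.9%), with 2.01 per Mb in 7 peaks. The Snrpn peak (chr7:60163339-60163869) held 39 tags in wild-type cells and 26 in the knockout, and a peak in Zfp777, a zinc finger gene, 38 and 35. A peak over Kcnq1 and the noncoding RNA gene Kcnq1ot1 inside it (chr7:143251117-143251543) held 37 and 37 tags. The peak over Blcap and Nnat, which lies inside Blcap, held 25 and 59 tags (chr2:157561424-157561766), and Peg10, a gene derived from a retrotransposon, 21 and 32. Airn, the noncoding RNA gene that silences Igf2r, held 18 and 18 tags, and Ppp1r9a 15 and 13. The peaks of Snrpn, Kcnq1ot1, Airn and Ppp1r9a lay 38 kb or more from both ends of these genes, and that of Nnat 759 bp from an end. Whether any of the peaks lies at a site that controls imprinting was not checked. The Blcap and Nnat peak was the one furthest apart in tags, and its density ratio of 0.29 had an interval of -0.41 to 1.02. H3K4me3 stood at an end of 7 of these 9 genes whatever the genotype, and of 34 of the 51 genes of the list, the exceptions among the 9 being Snrpn with none and Nnat with a wild-type peak alone.

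Zinc finger genes, taken by symbol, are a known target of this mark. A lasting peak was present in 54 of 428 (12.6%, 9.62 to 16.1%), with 5.79 per Mb. The genes with the most were Zfp993 with 14 peaks that held 655 tags in wild-type cells and 494 in the knockout, Zfp982 with 7 peaks and 227 and 192 tags, and Zfp978 with 6 peaks and 380 and 294 tags. Zfp979 had 3 peaks with 143 and 119 tags and Zfp600 had 2 with 105 and 73. These 5 genes lie in the same region of chromosome 4, where Zfp992 held more tags in the knockout, 72 and 88. Summed tags were lower in the knockout in 35 of the 54 genes, higher in 18 and equal in 1. On chromosome 4 they were lower in 10 of 12. These genes are not all separate, since Zfp981 shares its peak with Zfp993, and Zfp991 shares its peaks with Zfp978. Of all 2297 paired lasting peaks 60.4% were below 0 in density ratio, a different measure. The direction is thus not read as particular to zinc finger genes. Elsewhere, Zfp111 on chromosome 7 held 75 and 49 tags, Zfp30 on chromosome 7 held 56 and 53, and Zfp282 on chromosome 6 held 71 tags against 80 in 2 knockout peaks. Tags were higher in the knockout at Zfp46 on chromosome 4, with 41 and 109, and at Zfp994 on chromosome 17, with 17 and 53. With 1 library per genotype these counts have no replicate check.

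Counted by peak, 82 lasting peaks (2.84%, 2.26 to 3.51%) lay inside a zinc finger gene, against 1.46% (1.25 to 1.70%) of wild-type peaks and 1.28% (1.05 to 1.55%) of knockout peaks without a counterpart. The value was 2.91% for lasting peaks with H3K4me3. Chromosome 4 made most of this. There 40 of 246 lasting peaks (16.3%) lay in zinc finger genes against 38 of 734 wild-type peaks without a counterpart (5.18%), while on the other chromosomes the counts were 42 of 2645 (1.59%, 1.15 to 2.14%) and 125 of 10415 (1.20%, up to 1.43%), with overlapping intervals. Genes of this cluster are near-identical copies in part, so where their tags belong is uncertain.

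**Figure D5:**
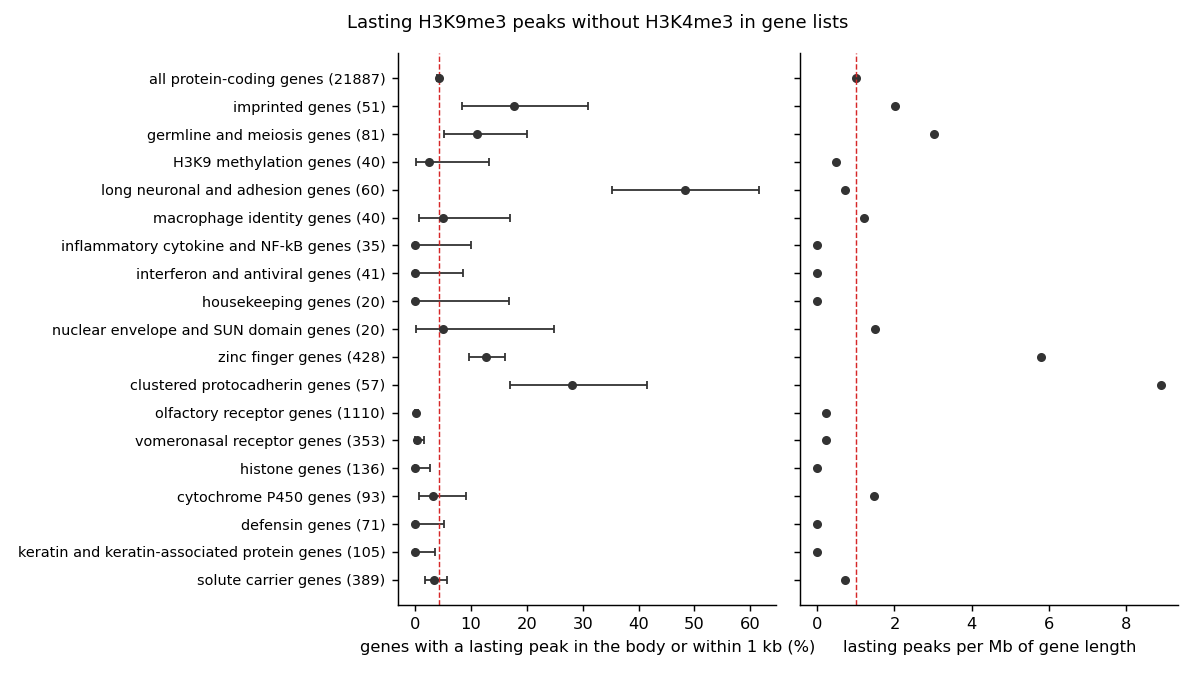
Gene lists by the percentage of genes with a lasting peak in the body or within 1 kb (left, with exact 95% intervals) and by lasting peaks per Mb of gene length (right), with the number of genes in brackets and the value of all protein-coding genes as a dashed line. Zinc finger, imprinted, germline and protocadherin genes lie above the line in both panels. So do macrophage identity genes (5% and 1.22 per Mb, from 2 genes) and nuclear envelope and SUN domain genes (5% and 1.49 per Mb, from 1 gene). Long neuronal genes, at 48.3%, lie below the line per Mb.

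Other lists differ in gene length and in how far their gene models overlap. Clustered protocadherin genes, which encode adhesion proteins of neurons from a shared array, had a lasting peak in 16 of 57 genes (28.1%) and 8.92 peaks per Mb, but these were 5 peaks in a stretch that many of the gene models share. Pcdhga1 held all 5, with 222 tags in wild-type cells and 229 in the knockout. Long neuronal and adhesion genes had one in 29 of 60 genes (48.3%), with a median gene length of 1137 kb and 0.717 peaks per Mb, under the 1.01 of all genes. Macrod2 held 5 peaks with 104 and 86 tags, Galntl6 4 with 93 and 89, and Cdh18, a cadherin gene, 4 with 91 and 113. Solute carrier genes had one in 13 of 389 (3.34%, 0.716 per Mb) and cytochrome P450 genes in 3 of 93 (1.47 per Mb).

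Macrophage identity genes had a lasting peak in 2 of 40 (1.22 per Mb), Mrc1, the mannose receptor gene, with 14 tags in wild-type cells and 25 in the knockout, and Mitf, a transcription factor gene, with 12 and 21. Both wild-type peaks were near the lowest score, at 50.59 and 56.67. Their density ratios had intervals of -0.39 to 1.67 and -0.70 to 1.55, which include 0. With scores of at least 100 in both H3K9me3 lists, 0 macrophage identity genes held a lasting peak. Of 40 H3K9 methylation genes 1, Setdb2, had one, with 28 and 14 tags, and of 20 nuclear envelope and SUN domain genes (1.49 per Mb) 1, Syne1, which encodes a nesprin that binds SUN proteins, had 2 neighbouring peaks that shared a knockout peak, with 40 tags in wild-type cells and 37 in the 2 knockout peaks. The lists of 35 inflammatory, 41 interferon, 20 housekeeping, 136 histone, 71 defensin and 105 keratin genes had 0. In the same order these genes cover 0.519, 0.856, 0.277, 0.625, 0.384 and 0.681 Mb. All protein-coding genes had 1.01 peaks per Mb, so 0 in such short lengths does not show that the mark is absent there. The histone list was taken by a pattern of names that H3f4, described above, does not match. With 0 of 35 genes the exact interval still allows 10.0%, and with 0 of 20 it allows 16.8%. Olfactory receptor genes, kept silent outside the nose, had 1 of 1110, Olfr270 with 14 and 18 tags, and vomeronasal receptor genes 1 of 353, Vmn2r1 with 15 and 18. These families are short genes, and per Mb they had 0.231 and 0.233 peaks.

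Over genes of all lengths, a lasting peak in a gene did not go with a lack of H3K4me3 at its ends, but this differed with gene length. Of the 919 protein-coding genes with one, 619 (67.4%, 64.2 to 70.4%) had H3K4me3 within 1000 bp of an end in each genotype, against 60.3% of all 21887. Genes with a lasting peak were longer, with a median of 100.6 kb against 17.2 kb. Between 10 and 50 kb of length the shares were 67.3% with a lasting peak and 68.4% without. Between 50 and 200 kb the share was lower with a lasting peak, 68.8% (63.7 to 73.6%) of 353 genes against 73.8% (72.3 to 75.2%). Above 200 kb the shares were 67.2% of 268 genes and 66.8%. In genes of up to 10 kb they were 58.0% (43.2 to 71.8%) of 50 genes and 43.8% of 7875. As a check of the labelled cell type, 11 of 11 macrophage markers had H3K4me3 in both genotypes. Markers of other cells had it in 2 of 8 for T and NK cells, 2 of 5 for B cells, 0 of 6 for neutrophils, 1 of 6 for mast cells and eosinophils and 2 of 8 for mesothelial cells and fibroblasts. In 1 genotype alone it stood at 4 further mesothelial and fibroblast markers, Upk3b, Col1a2, Krt19 and Krt8, and at the neutrophil markers S100a8 and Camp. None of these markers held a lasting peak.

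Lasting peaks lay far apart on the whole, with a median of 209 kb to the next one. Another lay within 10000 bp for 386 of them (13.4%, 12.1 to 14.6%), against 14.6% of the more numerous wild-type peaks without a counterpart and 11% of the knockout ones. The densest chains, joined over at most 100 kb, were 4 with 10 or more lasting peaks, 61 peaks in all. The zinc finger cluster of chromosome 4 held 2 of them, with 21 peaks over Zfp978, Zfp982, Zfp985 and Zfp979 (chr4:147336716-147642654, 957 and 906 tags) and 16 over Zfp992, Zfp981 and Zfp993 (chr4:146446832-146894210, 795 and 637 tags). The third lay on chromosome 1 over Sp110, Sp140 and their gene copies, with 13 peaks that held 1863 and 1816 tags (chr1:85459755-85638466). The fourth lay near the end of chromosome Y at Mid1-ps1, with 11 peaks that held 1202 and 1160 tags. All 4 chains thus lay among genes in tandem or genes with pseudogene copies, and their tag sums were somewhat lower in the knockout.

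A zinc finger cluster of chromosome 17 from Zfp820 to Zfp994 (chr17:21815874-22297368) had 9 lasting peaks with 196 tags, which met 8 knockout peaks with 208 tags, and none within 10000 bp of H3K4me3. Chromosome 4 had the most lasting peaks, 246, which were 25.1% (22.4 to 27.9%) of its H3K4me3-free wild-type peaks. The share was highest on chromosome Y with 28.1% (19.07 to 38.6%) of 89 peaks and lowest on chromosome 7 with 17.5% (14.9 to 20.3%). Apart from chromosomes 4, 19, X and Y the shares lay between 17.5% and 21.8%.

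The peaks with the most tags were mostly wide and of low enrichment. An exception in width was the chromosome 2 peak given above, with 360 and 340 tags and a wild-type width of 461 bp. The 20 lasting peaks with the most tags held 10743 tags in the wild type, 13.7% of the tags of all 2891. The 38 peaks wider than 1000 bp had a median of 227.5 tags and a fold enrichment of 3.83, against 8.17 for the other lasting peaks, and H3K4me3 stood within 10000 bp of 29 of them (76.3%, 59.8 to 88.6%), against 877 of 2853 others (30.7%, 29.05 to 32.5%). Peaks were called without a control library, so a stretch where reads pile up in any library is not told apart from marked chromatin here, and this was not tested.

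Sfi1, a centrosome gene of chromosome 11 with copies in the genome, carried the peak with the most tags (chr11:3190832-3194459), 1260 in 3628 bp of wild-type chromatin and 1772 in 6426 bp of the knockout. Its density ratio was -0.34 (-0.45 to -0.24), so it held more tags but was less dense in the knockout. A second Sfi1 peak (chr11:3197262-3200141) held 744 and 587 tags and the highest score of the wild-type list of lasting peaks, 439.79, with a ratio of -0.37 (-0.53 to -0.21). Pisd-ps1, a pseudogene beside it, held 886 and 766 tags. Over the 7 lasting peaks of Pisd-ps1 and Sfi1 the sums were 4376 and 5003 tags. The higher knockout sum rested on 2 peaks with wider knockout calls, the first above and one in Sfi1 with 775 tags in 2289 bp and 1363 tags in 5104 bp, while a further Sfi1 peak held 654 and 459 tags.

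Ahnak2, which encodes a very large scaffold protein, had the widest wild-type peak (chr12:112779423-112784814), with 1091 tags in 5392 bp and 1148 tags in 5379 bp and a ratio of 0.07 (-0.05 to 0.19). Sp110 and Sp140 shared a peak of 826 and 714 tags (chr1:85591023-85594900), with a ratio of -0.15 (-0.29 to -0.0011). Mid1, a ubiquitin ligase gene at the edge of the pseudoautosomal region of chromosome X, held 424 and 359 tags (chrX:169987413-169990015), and its pseudogene Mid1-ps1 on chromosome Y held 444 and 386 (chrY:90761927-90764933). These peaks differed little between the genotypes for their size.

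Of the other wide lasting peaks, 5 are given as examples chosen after their values were seen. Stk32c, a kinase gene, held 123 tags in wild-type cells and 133 in the knockout (chr7:139189190-139190274) at a fold enrichment of 8.79 in the wild type. Hic1, a zinc finger repressor gene, held 134 and 154 tags (chr11:75165820-75167365), Spen, a repressor that acts in X inactivation, 137 and 132, and Zfhx3, a homeobox gene, 100 and 82. Rlf, a zinc finger gene, held 96 wild-type tags in 1093 bp, and met 2 knockout peaks with 65 tags in all, of which the second was shared with a neighbouring lasting peak of 38 wild-type tags.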

How the data were processed

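The authors deposited 1 list of MACS 1.4.2 peaks per library, called without a control, with a p-value limit of 1e-05, a band width of 300, 1 tag kept per position and a local background over up to 10000 bp, per the file headers. CASAVA 1.4, Bowtie 0.12.8, DiffBind and the build mm10 are named in the submitters' processing notes, without their roles. For each peak the authors deposited a count of tags, a score made from the p-value as -10 times its log10, a fold enrichment as a ratio, a width and a summit in bp. Score and fold are the authors' values and only describe or filter peaks within a list. Libraries held 26748289 to 29681491 filtered tags, and H3K9me3 peaks held 1.69% (wild type) and 1.62% (knockout) of theirs. The caller's fragment size was 66 and 71 bp for H3K9me3, near the tag length of 50 bp.

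Overlaps, distances, shares and tag ratios were computed with Python 3.11.15, numpy 2.4.6, pandas 2.3.3 and scipy 1.17.1, plotted with matplotlib 3.10.9, and promoter windows aligned end to end with Biopython 1.88, after the computation was tested on simulated data. Genes, 49943 in number and 21887 of them protein-coding, and promoter windows came from RefSeq tables of GRCm38.p6. The tables gave no strand for gene bodies and no exons. No test was made between groups of 1 library. Pairs overlapped each other by at least 50% reciprocally and no other peak.

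Named peaks were the 20 with the most tags, the 10 highest and 10 lowest density ratios among pairs with at least 50 tags in 1 library, up to 4 genes per gene list, the 10 genes with the most lasting peaks, the 10 gene-end peaks with the most tags, and up to 3 peaks at each limit of the rule. Not all are printed. Other members of the lists, the wide peaks Stk32c, Hic1, Spen, Zfhx3 and Rlf, zinc finger genes beyond the first 4, and H3f4 and Stpg4 were chosen after their values were seen. The lasting peaks and the gene lists were chosen with earlier results of these data known. Alternatives covered overlap, score, distance, scaling and the H3K4me3 lists.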

Additional observations from a re-analysis of the deposited data

How the results depend on the processing

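No paired analysis was possible because the labels give 1 library per mark and genotype and no replicate numbers, and for the same reason no library could be left out. With scores of 100 or more asked of the H3K9me3 peaks of both lists, 206 lasting peaks were left of 2891. Of these 53.9% lay in a gene, 5.34% at a protein-coding gene end and 2.91% within 10000 bp of another. At that score 111 protein-coding genes (0.507%) held one, and the lists of zinc finger, germline, imprinted and protocadherin genes had 5, 3, 3 and 10 genes with one, where the 10 protocadherin genes shared 1 peak. Requiring that 50% of the wild-type peak be covered gave a lasting share of 17.9%. Protein-coding genes alone held 36.4% of the lasting peaks. Gene-end windows of 500 and 2500 bp gave 1.59% and 6.68%. Neighbour distances of 1000 and 100000 bp gave 8.47% and 34.2%, and the same distances to H3K4me3 gave 5.12% and 74.9%, while H3K4me3 peaks with a score of at least 100 gave 18.6% within 10000 bp. The median log2 density ratio was -0.0035 scaled to library totals and -0.089 with at least 50 tags in 1 library. With tags per peak, not divided by width, 13 paired lasting peaks were at least 2-fold higher and 39 at least 2-fold lower in the knockout, against 0 and 0 in density. Without the lasting peaks in zinc finger genes of chromosome 4, an alternative added after seeing the data, 1.47% lay in a zinc finger gene. The causes of these shifts beyond the construction of each alternative were not tested. In the other 18 settings, which varied overlap, merging, scaling, H3K4me3 limits and width, values moved by less than their interval or by less than 1.5 times for counts. Zinc finger genes by protein motif were not run, since proteins were not used here. Tags limit the precision, since the median counting SD of a paired log2 ratio was 0.47.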

Other observations

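Tandem gene families other than zinc finger genes also held chains of lasting peaks, joined over at most 100 kb. These were chosen after their values were seen, and the counts of near-identical copies are uncertain. The Mup pseudogenes of chromosome 4, copies of the major urinary protein genes (chr4:60279688-60593562), held 8 lasting peaks with 180 wild-type tags and 150 knockout tags, each knockout peak being counted once here and below. The H2-Q7 region of the major histocompatibility complex (chr17:35400156-35446104) held 7 with 332 tags, which met 5 knockout peaks with 369 tags, all 7 within 10000 bp of an H3K4me3 peak. At Prl2c3, a gene of the placental prolactin family, 6 peaks held 243 and 182 tags, and at Cyp3a41b, a cytochrome P450 gene, 5 held 119 and 98, with 0 near H3K4me3. The immunoglobulin kappa locus Igk held 6 in all with 159 and 124 tags, and Sirpb1b, a gene of myeloid cell receptors, held 4 with 96 and 106.

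Close groups of lasting peaks outside these families are given by 4 examples, also chosen after their values were seen. Tlx1 and Lbx1, neighbouring homeobox genes of chromosome 19, had 4 lasting peaks around them with 132 and 163 tags. In Ncoa2, a nuclear receptor coactivator gene, 3 peaks within 1.68 kb held 105 wild-type tags and met 2 knockout peaks with 34 tags in all, 1 of them shared by 2 of the lasting peaks. At Dyrk2, a kinase gene, 3 peaks held 109 and 95, and in Unc5c, a netrin receptor gene, 3 held 55 wild-type tags and met 2 knockout peaks with 37 tags in all, 1 of them shared. With 1 library per genotype these differences have no replicate check.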
